A study of Mus musculus with 2 samples.

Results

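The Fc gamma receptors and the proteins that carry their signal are described here as 8 genes: the receptors Fcgr1, Fcgr2b, Fcgr3 and Fcgr4, the adaptor chains Fcer1g and Tyrobp, the kinase Syk, and Fcgrt, the heavy chain of the neonatal Fc receptor. They were chosen by symbol from 42462 mouse genes matched to the GENCODE annotation, and all 8 had a row in both libraries. Total RNA was sequenced from 2 libraries of primary cells labelled megakaryocyte, taken from C57BL/6J mice, male and adult, at an age of 5 to 6 weeks. No allele, transgene or treatment is named in the labels, and both libraries are given as biological replicates (1 and 2) that name the same donor. Each was made from 100 ng of RNA with ribosomal RNA removed. In nucleotides, the labels give sizes from 221 to 1000 in library 1 and from 200 to 1000 in library 2. There was 1 group only, so the comparisons are between genes and between the libraries.

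Fc gamma receptors bind the constant part of immunoglobulin G (IgG) on immune complexes and coated particles. In the mouse, Fcgr1, Fcgr3 and Fcgr4 are activating receptors: their ligand-binding chains have no signalling motif of their own and depend on the common gamma chain encoded by Fcer1g, which carries an immunoreceptor tyrosine-based activation motif (ITAM). Src family kinases phosphorylate the tyrosines of the ITAM, and Syk docks there and passes the signal on. Fcgr2b is the inhibitory receptor and carries an inhibitory motif (ITIM) in its own tail, which recruits the phosphatase encoded by Inpp5d. Tyrobp, also called DAP12, is a second ITAM chain that serves other receptors of myeloid and natural killer (NK) cells. Fcgrt is no member of that family by function, since it binds IgG inside the cell and returns it to the surface. Megakaryocytes, which release platelets, are known to use Fcer1g and Syk under the collagen receptor glycoprotein VI, encoded by Gp6, while mouse platelets lack the activating Fc gamma receptor of human platelets.

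The labelled cell type was checked against its defining markers. Of 12 megakaryocyte markers, 1 reached 1 TPM (transcript share of the library, corrected for transcript length) in both libraries, the median was 0.0375 TPM, and Gp5 and Gp6 were among those with 0 counts in both. All 10 neutrophil markers and all 8 monocyte markers reached 5 TPM in both libraries, with medians of 407 and 299 TPM. The 7 basophil and mast cell markers had a median of 20.6 TPM. Medians were 5.62 TPM for eosinophil markers, 2.94 for dendritic cell, 2.43 for erythroid, 0.793 for NK cell, 0.175 for tissue macrophage and 0.0325 for B cell markers, of which Pax5 and Vpreb3 had 0 counts in both libraries. The cells are therefore called here by their label only, and which cells of the preparation the receptor RNA came from was not tested. Fewer cells of a type and less RNA per cell cannot be told apart in these bulk libraries. Summed expected counts, the estimated reads assigned to genes, were 42703213 in library 1 and 50532821 in library 2.

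The sequences that define the division of labour between chains and receptors are shown first, since each of these stretches lay in a transcript that led its gene in the levels given afterwards. They were read from GENCODE M21 transcripts on mm10, 5′ to 3′, and capitals mark each tyrosine codon of the motif and the codon for leucine that closes the same tyrosine repeat. Fcer1g-201 and Tyrobp-201 each held 1 match to the ITAM in their coding sequence. Fcgr2b-202 held 1 match to the ITIM.
Fcer1g ITAM: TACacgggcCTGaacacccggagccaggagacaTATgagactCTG
Tyrobp ITAM: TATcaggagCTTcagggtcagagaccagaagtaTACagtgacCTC
Fcgr2b ITIM: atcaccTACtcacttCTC
The Fcer1g motif covers codons 65 to 79 of 86 and is split over exons 4 and 5 of the minus strand, between chr1:171229889-171230072. The Tyrobp motif covers codons 92 to 106 of 114, also over exons 4 and 5, on the plus strand between chr7:30415670-30417382. The Fcgr2b motif covers codons 270 to 275 of 293 and lies within exon 7, on the minus strand at chr1:170961071-170961088. The coding sequences of the ITAM chains are 258 bases for Fcer1g and 342 bases for Tyrobp, and aligned with 72.6% identity over 241 bases.

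All 8 genes were expressed in both libraries, and the 8 levels kept one order. The adaptor chains stood above every receptor: Tyrobp was highest, then Fcer1g, then Fcgr3, Fcgr2b, Syk, Fcgrt, Fcgr4 and Fcgr1. The values of neighbours did not overlap between libraries in any of the 7 neighbouring pairs. The closest pair was Fcgr2b and Syk, whose levels differed 1.10-fold in each library. The median of the 8 genes was 45.9 TPM, beside a median of 0.28 TPM over 21461 nuclear protein-coding genes, of which 42.4% reached 1 TPM in both libraries. With 1 group these levels are a description, with no test.

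**Figure D1:**
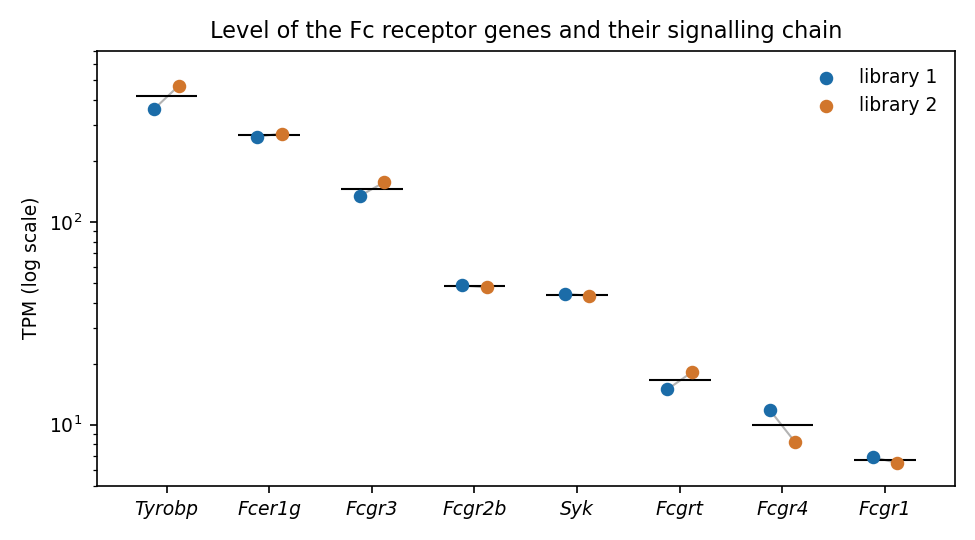
Level of each of the 8 genes in TPM on a log axis, one point per library, with a bar at the mean of the 2 libraries. Tyrobp lies highest at 362 and 471 TPM and Fcgr1 lowest at 6.93 and 6.46 TPM, and no gene's pair of points overlaps that of its neighbour.

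The signalling chains came first. Tyrobp (ENSMUSG00000030579, chromosome 7, 30413760 to 30417585, plus strand) was at 361.86 TPM in library 1 and 471.07 TPM in library 2, a mean of 416 ± 77.2 TPM (SD, n = 2). Among nuclear protein-coding genes it ranked 95th and 80th. Library 2 was the higher one. Fcer1g (ENSMUSG00000058715, chromosome 1, 171229572 to 171234365, minus strand) was at 263.29 and 273.29 TPM, a mean of 268 ± 7.07 TPM (SD, n = 2), and ranked 142nd and 164th. Its libraries lay close together, and both were below both Tyrobp values. Tyrobp over Fcer1g was 1.37 in library 1 and 1.72 in library 2. Both transcripts are short: effective lengths, the positions a fragment can start from, were 340.82 and 328.69 bases for Tyrobp and 445.24 and 435.7 bases for Fcer1g. These TPM values therefore rest on 12355 and 17642 counts for Tyrobp and 11744 and 13567 for Fcer1g.

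Among the activating receptors, Fcgr3, the low-affinity receptor for IgG, was the leading one. Fcgr3 (ENSMUSG00000059498, chromosome 1, 171051174 to 171064935, minus strand) was at 134.21 and 157.05 TPM, a mean of 146 ± 16.2 TPM (SD, n = 2). Fcgr4 (ENSMUSG00000059089, chromosome 1, 171018920 to 171029761, plus strand), a receptor for IgG2a and IgG2b, was at 11.77 and 8.25 TPM, a mean of 10.01 ± 2.49 TPM (SD, n = 2). Here library 1 was the higher one. Fcgr1 (ENSMUSG00000015947, chromosome 3, 96282909 to 96293969, minus strand), the high-affinity receptor, was at 6.93 and 6.46 TPM, a mean of 6.70 ± 0.332 TPM (SD, n = 2). The lower Fcgr4 value, 8.25 TPM, stood above the higher Fcgr1 value, so this pair kept its order although its ratio was 1.70 in library 1 and 1.28 in library 2. Of 8 genes, Fcgr1 ranked lowest, at 4936th and 5261st among nuclear protein-coding genes, which still left 77.0% and 75.5% of them below it.

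The inhibitory receptor Fcgr2b (ENSMUSG00000026656, chromosome 1, 170958617 to 170976547, minus strand) was at 48.64 and 47.55 TPM, a mean of 48.1 ± 0.771 TPM (SD, n = 2). The activating receptors together summed to 152.91 and 171.76 TPM, so activating over inhibitory RNA was 3.14 in library 1 and 3.61 in library 2, a mean of 3.38 ± 0.331 (SD, n = 2). Most of that ratio was Fcgr3, which alone stood 2.76 and 3.30 times above Fcgr2b. Of the summed TPM of the 4 receptors, Fcgr3 took 66.6% and 71.6%, Fcgr2b 24.1% and 21.7%, Fcgr4 5.84% and 3.76%, and Fcgr1 3.44% and 2.95%. Fcer1g exceeded the activating receptors that need it 1.72-fold in library 1 and 1.59-fold in library 2, a mean of 1.66 ± 0.0925 (SD, n = 2). This ratio depends on division by length: on expected counts it was 0.632, since the Fcer1g transcript is the shorter one.

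Downstream of the chains, the kinase Syk (ENSMUSG00000021457, chromosome 13, 52583173 to 52648792, plus strand) was at 44.3 and 43.17 TPM, a mean of 43.7 ± 0.799 TPM (SD, n = 2). Fcer1g stood 5.94 and 6.33 times above it. Syk had the largest count of the 8 genes in each library, 19901 and 22126, over effective lengths of 4483.97 and 4497.89 bases. Fcgrt (ENSMUSG00000003420, chromosome 7, 45092990 to 45103851, minus strand) was at 14.93 and 18.18 TPM, a mean of 16.6 ± 2.30 TPM (SD, n = 2). Both libraries lay between Syk and Fcgr4. B2m, the light chain that Fcgrt needs to fold, was at 754.69 and 748.31 TPM, above all 8 genes.

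Of the 8 genes, 4 share a stretch of chromosome 1. From Fcgr2b to Fcer1g the stretch spans 275.7 kb and holds 17 annotated genes, of which 11 are protein-coding, and Fcgr2b, Fcgr4, Fcgr3 and Fcer1g lie in that order. The levels along it were uneven. The 7 other protein-coding genes stood below Fcgr2b, Fcgr3 and Fcer1g in both libraries. Sdhc, a subunit of a mitochondrial respiratory complex, was at 8.51 and 11.8 TPM, below Fcgr4 in library 1 and above it in library 2. Tomm40l was at 2.12 and 3.95 TPM. The others, among them Cfap126, Pcp4l1, Nr1i3 and Apoa2, did not exceed 0.18 TPM in either library. On the Fcgr2b side, the Fc receptor-like genes Fcrlb and Fcrla were at 0 counts in both libraries and at 0.67 and 0.12 TPM.

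**Figure D2:**
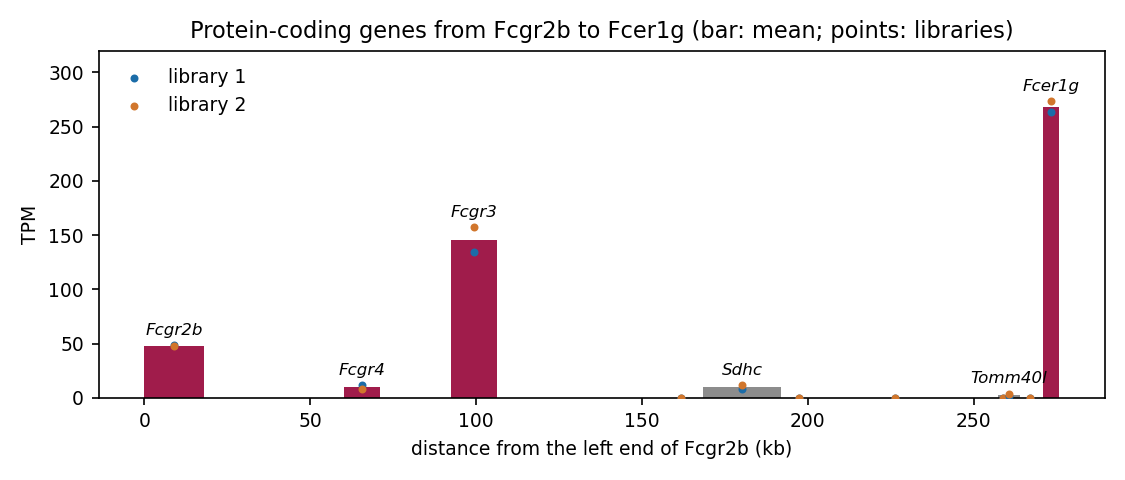
Mean TPM (bars, spanning each gene's length) and the value in each library (points) of the 11 protein-coding genes between Fcgr2b and Fcer1g, against distance in kb from the left end of Fcgr2b. Fcer1g (268 TPM), Fcgr3 (146 TPM) and Fcgr2b (48.1 TPM) stand above the 7 genes that are not Fc receptor genes, of which Sdhc is the highest at 10.2 TPM, near Fcgr4 at 10.01 TPM.

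Fcgr2b and Fcgr3 resemble each other in sequence, which bears on how reads were divided between them. Their leading coding sequences aligned with 86.2% identity over 778 bases and shared an unbroken run of 129 bases. The other receptor pairs, which also aligned at 64.6% to 68.6%, shared no run above 14 bases. Of the 1298 windows of 50 bases in Fcgr3-201, 166 (12.8%) also occurred in Fcgr2b-202. In the deposited table the expected counts of these 2 genes were not whole, 6401.22 and 14973.78 in library 1 and 7216.19 and 19741.81 in library 2, but their sums were whole, 21375 and 26958, within 0.02. The other 6 genes had whole counts in both libraries. The deposited posterior SD of the count was 2.81 in library 1 and 3.6 in library 2 for either gene, which is 0.0188% and 0.0182% of the Fcgr3 count and 0.0439% and 0.0499% of the Fcgr2b count. That SD holds only the division of reads between the genes as the authors' model made it. Genes annotated across the members had 0 counts where a row existed: the antisense gene Gm38204 at Fcgr2b, Mir6546 in Fcgr3 and Gm26110 in Fcgr4. Gm45669, antisense to Fcgrt, was not analysed here, and since no source used here states whether reads were counted by strand, its reads and those of Fcgrt cannot be told apart.

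The tables hold 23 transcripts of the 8 genes. Fcgr1, Fcgr4, Tyrobp and Fcgrt were quantified with 1 transcript each, and the other 4 genes with several, of which Fcgr2b-204 and Fcgr3-202 had 0 TPM in both libraries. GENCODE M21 also annotates transcripts of Fcgr1, Tyrobp and Fcgrt that were not quantified. A transcript's share below is its percent of the gene's TPM. In each of the 4 genes 1 transcript led in both libraries. Fcer1g-201 took 98% and 98.7%, Fcgr2b-202 70.6% and 77.5%, Fcgr3-201 72.2% and 78.1%, and Syk-201 57.8% and 64.2%. All 4 leading shares were higher in library 2. Noncoding transcripts took 15.6% and 12.1% of Fcgr2b, 13.5% and 12.1% of Fcgr3, 14.5% and 12.4% of Syk, and 1.77% and 0.926% of Fcer1g, lower in library 2 for all 4. The noncoding transcripts at 10% or more were retained introns, Fcgr3-203 at 13.5% and 12.1% and Syk-204 at 11.8% and 11.2%. These libraries were made from total RNA, and the part of unspliced RNA in these shares was not tested.

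**Figure D3:**
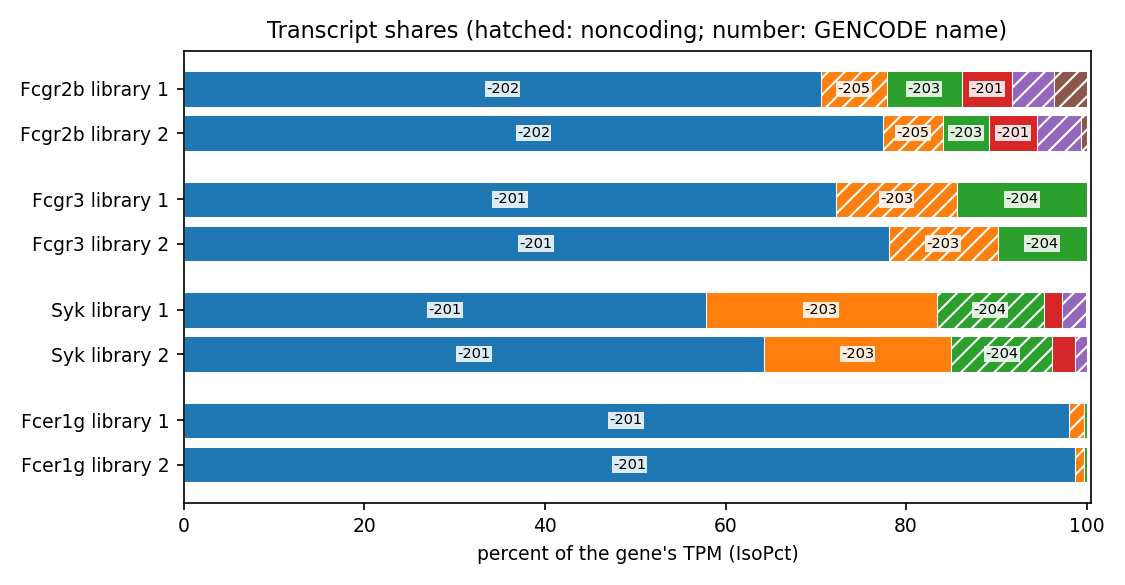
Share of each transcript in its gene's TPM, in percent, for the 4 genes with several transcripts, one bar per library; hatching marks noncoding transcripts and the number is the transcript's GENCODE suffix. The leading transcript takes 57.8% (Syk, library 1) to 98.7% (Fcer1g, library 2) and is the same in both libraries.

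The Fcgr2b transcripts differ by a cassette exon that codes for part of the cytoplasmic tail, before the ITIM. The form with the whole exon (called b1) is known from B cells, where it keeps the receptor from being taken up, and the form without it (b2) is known from myeloid cells and takes up its ligand. The exon is number 6 of Fcgr2b-201, 141 bases on the minus strand at chr1:170963325-170963465. Fcgr2b-203 keeps the first 57 bases, shown in capitals, and Fcgr2b-202 skips the exon, so that its flanks join as in the second line, where the change from lower case to capitals marks the junction.
Fcgr2b cassette exon: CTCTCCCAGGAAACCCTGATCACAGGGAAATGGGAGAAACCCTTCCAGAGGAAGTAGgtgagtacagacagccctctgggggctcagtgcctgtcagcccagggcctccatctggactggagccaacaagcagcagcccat
Fcgr2b skipped junction: caggttccagACAATCCTCC
The coding sequences are 1020 bases with the whole exon, 936 with its first part and 879 without it, so the frame is kept in all 3. Transcripts without the exon were at 34.32 and 36.84 TPM, those with its first part at 4.02 and 2.42 TPM, and those with the whole exon at 2.71 and 2.53 TPM. Of the transcripts that span it, 83.6% in library 1 and 88.2% in library 2 lacked the exon, 9.79% and 5.79% held its first part and 6.60% and 6.05% held all of it. These transcripts also differ in their 3′ ends, at 170958617 for Fcgr2b-201, 170960558 for Fcgr2b-202 and 170960993 for Fcgr2b-203. Reads over the exon or its junctions were not counted, so these transcript shares do not measure use of the exon alone. The form without the exon led in both libraries. By TPM the part form was above the whole form in library 1 and just below it in library 2. Their deposited TPM intervals overlapped in both libraries, so the order of these forms is not settled. In library 1 the intervals were 2.85 to 4.92 for the part form and 2.44 to 2.92 for the whole form. In library 2 they were 1.54 to 3.45 and 2.30 to 2.73. B cell markers lay near 0, with the sum over 6 markers at 3.26 and 4.33 TPM, and their part in the transcripts with the exon was not tested.

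The coding transcripts of Fcgr3 with reads differ by the choice between neighbouring acceptor sites at exon 3, and in their 3′ ends. Fcgr3-201 begins the exon with 3 more bases, CAG, at chr1:171057946-171057948 on the minus strand. Those bases are in capitals in the first line, and the second line shows the junction without them.
Fcgr3-201 junction: acaggcagagtgCAGctcttccgaagg
Fcgr3-204 junction: acaggcagagtgctcttccgaagg
The coding sequences are 801 and 798 bases, a difference of 1 codon. Fcgr3-204 took 14.3% of the gene in library 1 and 9.83% in library 2. Of the pair alone, the form with the bases took 83.5% and 88.8% and the form without them 16.5% and 11.2%. The 3′ ends lie at 171051175 for Fcgr3-201 and 171051195 for Fcgr3-204. Reads over the junctions were not counted, so these shares do not measure use of the acceptor sites alone.

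The annotated Syk transcripts fall in groups with separate starts. Start use was not measured and is read here from the transcript shares only. The upstream group of 3 transcripts begins between 52583173 and 52583503 on chromosome 13, and the downstream group of 2 between 52596853 and 52596959, 13.4 kb away. The downstream group, which holds Syk-201, took 69.6% and 75.4% of the gene, and the upstream group, which holds Syk-203, took 30.4% and 24.6%. Syk-204, placed in the downstream group at 11.8% and 11.2%, begins inside exon 2 of the upstream Syk-202, so its group is uncertain. Among coding transcripts alone the downstream group took 67.6% and 73.3%. Syk-203 by itself was at 25.6% and 20.8%. Syk-201 and Syk-203 have the same coding sequence of 1887 bases, and Syk-202, whose coding sequence is 138 bases shorter, took 2.05% and 2.58%.

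The libraries were then compared with each other, which tests these libraries and not a condition. Of the 8 genes, 7 differed by a two-sided exact binomial test with Benjamini-Hochberg adjustment, 3 higher in library 2 and 4 higher in library 1. Over all 14283 genes tested (mean count at least 10) the same test called 65.1%, with 32.9% higher in library 2 and 32.2% higher in library 1, so most genes of any kind passed it. This test holds counting error only. With an assumed biological coefficient of variation (BCV) of 0.1, edgeR's exact test called 1 of the 8 genes, Fcgr4, beside 17.5% of all genes (7.69% higher in library 2 and 9.79% higher in library 1). A common BCV of 0.344 was also estimated by edgeR, with both libraries taken as 1 group. That value counts the differences between the libraries as noise, so the exact test at this BCV cannot decide whether the 8 genes differ.

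Fcgr4 had the largest difference. Its counts were 1218 and 959 and its log2 ratio of library 2 over library 1 was -0.59 ± 0.0623 (counting SE), or 0.666 times its library 1 level (adjusted p = 5.2e-20 by the exact binomial test and 0.039 by edgeR's exact test at the assumed BCV). Of all genes tested, 23.7% had a larger ratio in either direction. For the 6037 genes within the range of mean counts of the Fc receptor genes, the upper decile of log2 ratio size was 0.367. Fcgr4 lay beyond that value, but below the upper decile of 1.40 for all genes tested. Fcgr1, the other activating receptor of low level, had a log2 ratio of -0.17 (adjusted p = 0.0018 by the exact binomial test and 0.74 by edgeR's). Fcgr3 differed the other way, with a log2 ratio of 0.16 (adjusted p = 6.3e-23 by the exact binomial test and 0.74 by edgeR's). By counting error the 3 activating receptors did not share a direction, and at the assumed BCV Fcgr4 alone was called.

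Tyrobp had the largest difference upward in library 2, with a log2 ratio of 0.27 or 1.21-fold (adjusted p = 2.2e-57 by the exact binomial test and 0.46 by edgeR's exact test), and 45.5% of genes had a larger ratio. Fcgrt followed with 0.22 or 1.16-fold (adjusted p = 1.6e-07 by the exact binomial test and 0.61 by edgeR's). Syk at -0.09 and Fcgr2b at -0.07 passed the exact binomial test (adjusted p = 2.3e-09 and 0.011) with ratios of 1.06-fold and 1.05-fold. Fcer1g did not pass it: its log2 ratio was -0.03 (adjusted p = 0.11, exact binomial test). The median size of the log2 ratio was 0.162 for the 8 genes, 0.238 for all genes tested and 0.135 for the 6037 genes within their range of mean counts. The scaled size of library 2 was 1.18 times that of library 1, and the median log2 ratio over all genes tested was 0.0011.

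**Figure D4:**
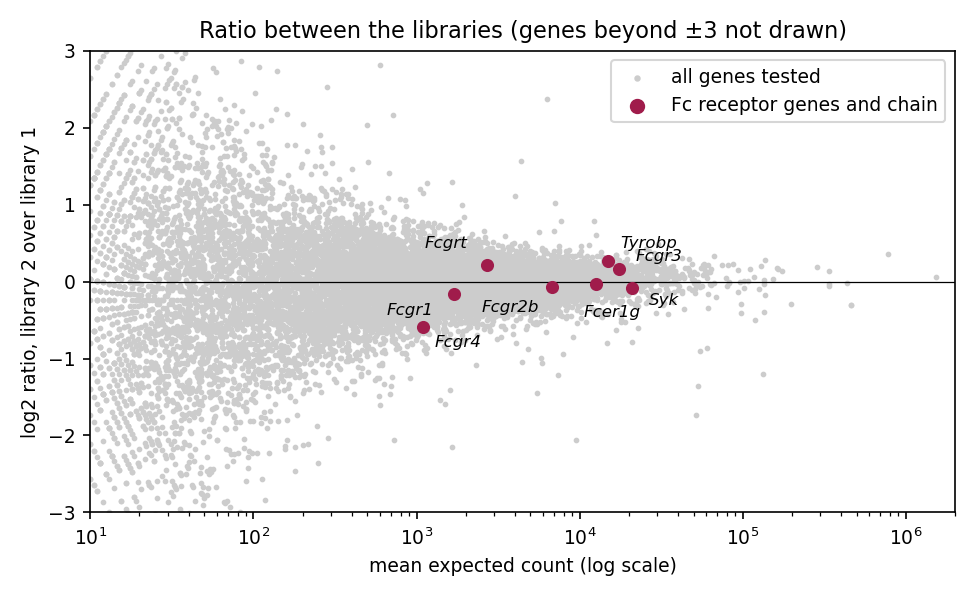
Log2 ratio of library 2 over library 1 against the mean expected count (log axis) for all 14283 genes tested (grey) and the 8 genes (red). Of the red points, Fcgr4 lies lowest at -0.59 and Tyrobp highest at 0.27, both inside the spread of all genes tested. Fcgr4 lies beyond the upper decile (0.367) of log2 ratio size among genes within the red points' range of mean counts.

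Marker genes of cell types differed between the libraries as well. The exact binomial test called 32.9% of all genes higher and 32.2% lower in library 2. Of 10 neutrophil markers, 8 were lower in library 2 by the exact binomial test and 1, Ly6g, was higher, and their sum went from 14491 to 13744 TPM. S100a8, called lower at a log2 ratio of -0.03, was higher in library 2 by TPM, at 7266 and 7929. All 8 monocyte markers were higher in library 2, with a sum of 7801 TPM in library 1 and 10199 TPM in library 2. All 4 eosinophil markers were lower in library 2, at sums of 88.97 and 77.75 TPM, and 3 of 6 NK cell markers were lower and none higher, at sums of 8.98 and 6.16 TPM. Erythroid markers differed most: 5 of 6 were lower in library 2, at a median log2 ratio of -1.14 and sums of 33.74 and 17.0 TPM. Dendritic cell markers were higher in 2 and lower in 5 of 7, basophil and mast cell markers higher in 4 and lower in 1 of 7, and tissue macrophage markers higher in 3 and lower in 1 of 6 tested. Of 4 megakaryocyte markers tested 2 were higher in library 2 and none lower, and of 2 B cell markers tested 1 was higher. At the assumed BCV edgeR called 17.5% of all genes and 5 of the erythroid markers. It called 2 each of the dendritic cell, basophil and mast cell, tissue macrophage and NK cell markers. Of the eosinophil and megakaryocyte markers it called 1 each, and of the neutrophil, monocyte and B cell markers none. The part of these cell types in the differences of Fcgr4, Tyrobp and the other genes was not tested.

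Another 8 lists of genes around the receptors held 122 genes with a row, of which 84 reached 1 TPM in both libraries. Their median was 7.14 TPM, and 16 genes had 0 counts in both libraries. The lists differed in level from the antibody side to the signalling side, as given next.

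**Figure D5:**
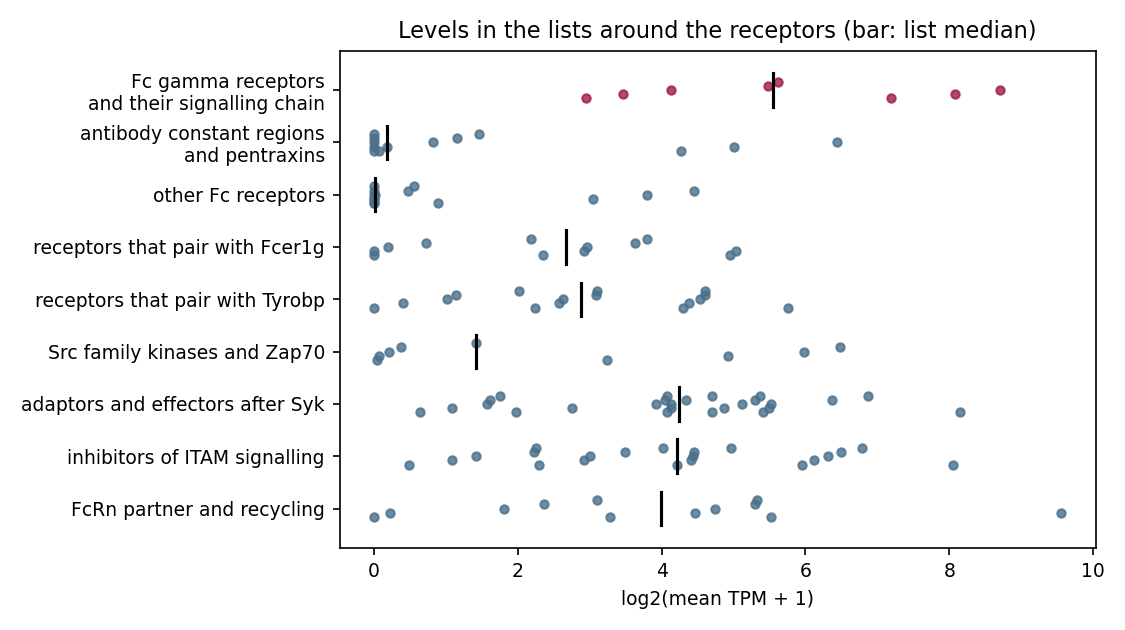
Mean TPM of each gene, as log2(TPM + 1), in the 8 Fc receptor genes and in 8 lists around them, with a bar at each list's median. Adaptors after Syk (17.8 TPM), inhibitors (17.5 TPM) and recycling genes (14.9 TPM) have the highest list medians after the 8 genes themselves (45.9 TPM), and the other Fc receptors (0.0075 TPM) the lowest.

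The ligands of these receptors are antibodies, and pentraxins also bind them. Of 13 such genes with a row, 4 reached 1 TPM in both libraries. Ighm, the constant region of IgM, led at 83.11 and 88.8 TPM, before the light chain constant region Igkc at 40.68 and 21.38 TPM and Igha at 29.59 and 7.01 TPM. The IgG genes, whose products are the ligands proper, were low: Ighg2b was at 2.38 and 1.13 TPM, and Ighg3 had 0 counts in both libraries, as had Ighe and the pentraxin genes Apcs, Crp and Ptx3. All 7 of these genes that were tested differed between the libraries by the exact binomial test, 5 of them lower in library 2. Over all genes the share called was 65.1%. Igkc, Ighg2b, Ighg1 and Igha were lower by 2-fold or more, with log2 ratios of -1.13, -1.15, -2.17 and -2.15. Iglc2 had 94 counts in library 1 and 0 in library 2, and Ighd 0 and 50. Iglc1 was not analysed here.

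Other Fc receptors were mostly near 0. Of 14, 3 reached 1 TPM in both libraries: Ms4a2 at 19.72 and 21.98 TPM and Fcer1a at 9.57 and 16.2 TPM, the beta and alpha chains of the IgE receptor of basophils and mast cells, and Trim21, a cytosolic antibody receptor, at 6.56 and 7.89 TPM. Fcrl1 followed at 0.72 and 1.0 TPM. The genes Fcamr, Fcmr, Pigr, Fcrl5, Fcrl6, Fcrlb and Fcgbp had 0 counts in both libraries. Of 6 tested, 2 were higher and 2 lower in library 2 by the exact binomial test, beside 65.1% of all genes called. Fcrls, at 60 and 3 counts, and Fcrla, at 49 and 19, were lower in library 2 by 2-fold or more. Fcer1a and Ms4a2 assemble with Fcer1g as the IgG receptors do.

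Receptors that pair with the ITAM chains were present on both sides. For Fcer1g, 8 of 12 partners reached 1 TPM in both libraries, with a median of 5.35 TPM, led by the paired immunoglobulin-like receptors Pira2 at 30.54 and 33.33 TPM and Lilra6 at 26.66 and 33.46 TPM, whose counts were not whole and are uncertain between near-identical copies. Clec4e, a receptor for mycobacterial glycolipid, was at 10.79 and 11.97 TPM. Gp6, the collagen receptor chain of megakaryocytes, and Oscar had 0 counts in both libraries. For Tyrobp, 12 of 16 partners reached it, with a median of 6.33 TPM. Clec5a led at 49.14 and 57.11 TPM, then Cd300lb at 24.06 and 22.62, Trem2 at 21.43 and 25.21 and Trem3 at 24.55 and 19.8 TPM, and Siglec15 had 0 counts in both.

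Between the libraries, 7 of 10 tested Fcer1g partners differed by the exact binomial test, 6 of them higher in library 2. The same test called 65.1% of all genes, 32.9% higher and 32.2% lower in library 2. Clec4n, at 12 and 73 counts, was higher by 2-fold or more on counts, but stood at 0.61 and 0.68 TPM, and the NK receptor Ncr1, at 598 and 323 counts, was lower. Of 15 tested Tyrobp partners 12 differed, 5 higher and 7 lower in library 2. The lower ones by 2-fold or more were the NK receptor genes Klra8 at 202 and 33 counts, Klra4 at 59 and 7, and Klrc2 at 302.44 and 135. Ncr1 is also 1 of the NK cell markers given above, of which 3 of 6 were lower in library 2.

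The kinases that phosphorylate the ITAM were led by the myeloid members of the Src family. Among them, Lyn was at 82.43 and 94.81 TPM, Fgr at 27.94 and 30.54 TPM and Fyn at 9.02 and 7.93 TPM. Of the 9 kinases in the list 5 reached 1 TPM in both libraries. Zap70, the relative of Syk in T and NK cells, was at 0.38 and 0.21 TPM, on 74 and 40 counts, and Yes1 at 42 and 3 counts. Both were lower in library 2 by 2-fold or more and passed the exact binomial test. Syk, at 44.3 and 43.17 TPM, stood above Zap70 in both.

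Adaptors and effectors after Syk reached 1 TPM in both libraries in 24 of 26 cases, with a median of 17.8 TPM. Cdc42, a GTPase of the actin machinery, led at 268.76 and 299.3 TPM. The protein kinase C gene Prkcd was at 112.54 and 118.56 TPM, the exchange factor Vav1 at 75.76 and 87.7 TPM and the phospholipase Plcg2 at 44.64 and 45.0 TPM. By the exact binomial test 10 were higher and 11 lower in library 2, none by 2-fold or more, beside 65.1% of all genes called. At the assumed BCV edgeR called 3 of the 26, beside 17.5% of all genes.

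Inhibitors of ITAM signalling reached 1 TPM in both libraries in 19 of 21 cases, with a median of 17.5 TPM. Ptpn6, the phosphatase SHP-1, led at 250.57 and 280.12 TPM. The inhibitory receptors Clec12a, at 104.15 and 115.08 TPM, and Sirpa, at 89.67 and 89.3 TPM, both stood above Fcgr2b, and the adaptor Sla was at 72.84 and 84.84 TPM. Inpp5d, the lipid phosphatase that Fcgr2b recruits, was at 36.69 and 24.08 TPM, and is named for that role and not by the rule on levels. Its counts were 10196 and 10269, with a log2 ratio of -0.23, a smaller difference than by TPM. By the exact binomial test 8 of 21 were higher and 7 lower in library 2, and edgeR called none at the assumed BCV. Over all genes these tests called 65.1% and 17.5%. Lilrb4a was not analysed here.

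Around Fcgrt, 10 of 12 genes of its light chain and of endosomal recycling reached 1 TPM in both libraries, with a median of 14.9 TPM. After B2m came the retromer subunit Vps35 at 42.08 and 47.42 TPM and the GTPases Rab11a at 39.33 and 39.15 TPM and Rab7 at 40.96 and 36.04 TPM. Rab25, an epithelial relative of Rab11a, had 0 counts in both libraries. Of 11 tested, 4 were higher and 6 lower in library 2 by the exact binomial test, beside 65.1% of all genes called. Rab4a, at 32 and 10 counts, was lower by 2-fold or more.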

How the data were processed

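The authors' deposited tables hold 1 row per gene and per transcript for each library, mapped to mm10 with GENCODE M4 according to the text files deposited beside them. Aligner and quantifier: not given in the sources used here. Per the file headers, the deposited expected counts are estimated reads per row, not normalized. The deposited TPM sum to 1000000 per library over all rows. The deposited FPKM are counts scaled by length and by assigned fragments. Transcript shares are the deposited IsoPct, a percent of the TPM of the gene. The deposited bounds of the TPM signal, at an unstated level, were read but not used in a test.

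Symbols, types and coordinates came from GENCODE M21 on the same build, by gene ID; of 43346 mouse rows 42462 matched. Of the 23 transcripts, 22 had the same length in both annotations; Fcgrt-201 had 1738 bases in the tables and 1770 in M21. Motifs, exons and coding sequences were read from M21 with Python 3.11.15 and Biopython 1.88.

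Expected counts were rounded and scaled with edgeR 4.0.16 (TMM) in R 4.3.3. Genes whose mean count was at least 10 entered a two-sided exact binomial test with Benjamini-Hochberg adjustment at 0.05; log2 ratios add 0.5 counts. Alternatives were edgeR's exact test at a BCV of 0.1 and at the common BCV, DESeq2 1.42.0 size factors, total counts and no filter. The binomial test was checked on counts simulated with counting error only, so the check does not cover further variation between libraries. With 1 library on each side no residual degrees of freedom exist, so p-values measure counting error; reads here carry no molecular identifiers and are not independent molecules.

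The rule for the members takes symbols only, but members and lists were proposed with earlier results of these data known. Named were all 8 members, the 4 highest genes of each list, those at 0 counts in both libraries or past 2-fold and the test, and transcripts at 10% or more of a gene, besides the other coding transcripts of Fcgr2b and Syk. A few genes within this rule are left unnamed; counts and medians include them.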

Additional observations from a re-analysis of the deposited data

How the results depend on the processing

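No paired analysis was possible because the libraries form 1 group. The order and ratios rest on 2 libraries that name the same donor. The median level of the 8 genes, 45.9 TPM, was 181 when TPM or FPKM were rescaled to nuclear protein-coding genes, which held 24.0% and 26.8% of TPM, and 45.4 to 46.5 when each library was left out in turn. Activating over inhibitory receptors, 3.38, was 2.95 on expected counts and 3.03 for Fcgr3 alone (3.14 to 3.61 by library). Fcer1g over activating receptors, 1.66, was 0.632 on expected counts, below 1, and 1.85 over protein-coding transcripts (1.59 to 1.72 by library). The number of members that differed between libraries was 7 with DESeq2 size factors, total counts or no filter, 1 with edgeR at a BCV of 0.1 and 0 at the common BCV. The common BCV counts the differences between the libraries as noise, so it cannot decide that number. The median log2 ratio of the members, -0.05, was 0.011 from deposited TPM, a change of sign. The list median, 7.14 TPM, was 13.5 without genes under 0.1 TPM and 6.78 to 6.98 by library. The median leading transcript share, 74.6%, was 71.4% to 77.8% by library, and 86 to 89 list genes reached 1 TPM by library. The log2 ratio of Fcer1g, which had not passed the test, went from -0.03 to 0.05 on deposited TPM, and those of the other 7 genes kept their sign. The cause of these shifts was not tested. Depth limits genes at 0, for which a count of 0 allows up to 3 counts.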
